A study of Mus musculus with 12 samples.

Results

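The 10 genes described here encode proteins of the cardiac Z-disc and its neighbourhood: the nebulin family members *Neb* and *Nebl*, the Z-disc proteins *Myot*, *Myoz2* and *Xirp2*, the LIM-domain proteins *Fhl1*, *Fhl2* and *Csrp3*, the muscle ankyrin repeat protein *Ankrd1* and the intermediate filament gene *Des*. They were 10 of 19938 genes that a probeset of the array names alone. They were chosen by their function and with their log2 signals in the 5 groups of these hearts already known, so their levels and the counts of changed genes describe these hearts and are no independent evidence of a pattern. The probeset of a gene was selected on its mean over the 12 hearts, the highest being used, and this touched only *Nebl*, which had 2.

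Whole adult hearts of 8 week old mice were measured on Affymetrix arrays, 1 array per heart and with no surgery or treatment named for them. There were 3 *Gata4*-deleted hearts (*Gata4*-flox with the cre transgene), 2 *Gata4* floxed hearts without cre, 3 *Gata6*-deleted hearts (*Gata6*-flox with cre), 2 *Gata6* floxed hearts without cre, and 2 cre hearts that carried the transgene with wild type *Gata4* and *Gata6*. The labels name the promoter of the cre transgene as MHCalpha, while the methods of the study describe a βMHC promoter. Either promoter acts in cardiomyocytes, and the RNA came from the whole organ, so both factors remained intact in the other cells of a deleted heart. The design set each deletion against its floxed line and the deletions against each other, to ask whether these related transcription factors have separate roles in the heart. The study also corrected its array values to the cre hearts as a shared control. Here cre hearts served as the control of a deletion only among the alternatives.

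The Z-disc borders the sarcomere and anchors the actin filaments of neighbouring sarcomeres through α-actinin. It is also a site where mechanical load is sensed: LIM-only and ankyrin repeat proteins bind titin and α-actinin there, and several of them also enter the nucleus. Nebulin lines the thin filament of skeletal muscle and is scarce in heart, where nebulette, the product of *Nebl*, takes a related place at the Z-disc.

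Values are log2 signals, so that a difference of 1 is a doubling. Array medians ran from 5.61 to 5.66 and correlations between arrays from 0.979 to 0.991, with no heart standing apart. The probesets of the targeted genes did not show the deletions, so the labels could not be checked by them: *Gata4* averaged 9.19 ± 0.047 in *Gata4*-deleted hearts (SD, n = 3) and 9.24 ± 0.018 in *Gata4* floxed hearts (SD, n = 2), and *Gata6* averaged 9.12 ± 0.13 in *Gata6*-deleted hearts (SD, n = 3) and 8.89 ± 0.28 in *Gata6* floxed hearts (SD, n = 2). Summed signals of 9 cardiomyocyte markers lay between 16.1 and 16.2 on the log2 scale in all groups, as the tissue label says. They were 16.12 to 16.15 in *Gata4*-deleted hearts, below 16.17 to 16.19 in *Gata4* floxed hearts and 16.20 to 16.22 in cre hearts. In *Gata6*-deleted hearts they were 16.13 to 16.17, and in *Gata6* floxed hearts 16.14 to 16.16. In such whole-organ RNA, more cells of a type and more RNA per cell cannot be told apart.

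Promoter sequence was taken from RefSeq (build GRCm38.p6, 250 bases before to 50 bases after a transcript start), which held 14 windows of 8 of the 10 genes and none of *Neb* or *Myot*. Below are a window each of *Fhl1*, which rose with the *Gata4* deletion, of its LIM-only relative *Fhl2* and of *Ankrd1*, which did not pass in any comparison, and of *Csrp3*, which was lowest in the *Gata4*-deleted hearts. Capitals mark 3 motifs searched on both strands: the GATA motif (AGATAA, with A or T allowed as its first letter and A or G as its last), the MCAT motif CATTCC and the CArG box, the serum response factor motif. They are chrX:56779433-56779732 (plus strand), chr1:43196712-43197011, chr7:48843622-48843921 and chr19:36119795-36120094 (all minus strand), in the order of the lines that follow, printed 5′ to 3′ on the strand of the gene.
Fhl1: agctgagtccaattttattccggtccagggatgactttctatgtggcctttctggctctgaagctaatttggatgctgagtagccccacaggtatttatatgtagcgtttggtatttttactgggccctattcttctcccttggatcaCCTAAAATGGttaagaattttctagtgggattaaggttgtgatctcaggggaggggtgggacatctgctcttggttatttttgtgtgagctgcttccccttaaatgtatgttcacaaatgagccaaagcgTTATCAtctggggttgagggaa
Fhl2: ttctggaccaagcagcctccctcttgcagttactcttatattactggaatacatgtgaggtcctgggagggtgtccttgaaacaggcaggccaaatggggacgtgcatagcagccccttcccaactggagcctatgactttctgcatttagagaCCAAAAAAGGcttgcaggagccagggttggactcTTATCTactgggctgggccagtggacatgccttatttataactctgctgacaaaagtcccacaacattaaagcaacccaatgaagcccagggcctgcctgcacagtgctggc
Csrp3: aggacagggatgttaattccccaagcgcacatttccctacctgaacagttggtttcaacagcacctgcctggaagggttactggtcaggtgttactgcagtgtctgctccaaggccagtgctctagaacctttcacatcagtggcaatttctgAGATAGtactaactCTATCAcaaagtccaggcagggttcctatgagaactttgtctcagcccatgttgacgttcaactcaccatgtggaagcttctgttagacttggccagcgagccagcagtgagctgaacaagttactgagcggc
Ankrd1: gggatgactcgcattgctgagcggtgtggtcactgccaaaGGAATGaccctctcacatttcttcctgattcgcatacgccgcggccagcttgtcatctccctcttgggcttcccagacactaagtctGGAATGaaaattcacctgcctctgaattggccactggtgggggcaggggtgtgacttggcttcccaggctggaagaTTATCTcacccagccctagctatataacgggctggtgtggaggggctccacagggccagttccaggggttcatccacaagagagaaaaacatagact

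In the *Fhl1* window the CArG box began 102 bases before the start and the GATA motif 29 bases after it. The *Fhl2* window also held both, at 96 and 62 bases before the start. *Csrp3* held a pair of GATA motifs at 97 and 83 bases before the start, and *Ankrd1* a GATA motif at 47 bases and MCAT motifs at 210 and 123 bases before the start. *Fhl1*, *Fhl2* and *Csrp3* each had 2 windows, of which the one with more matches is printed; the other held none of the 3 motifs for *Fhl1* and *Csrp3* and 1 CArG box for *Fhl2*. A GATA motif stood in 8 of the 14 windows (7 genes) and in 29.8% of all 32851 RefSeq windows. The CArG box stood in 4 of the 14 (3 genes: *Nebl*, *Fhl1*, *Fhl2*), against 1.63% of all windows, and MCAT in 2 of the 14, against 14.7%. *Fhl1*, which rose, and *Fhl2*, which did not pass, both held a CArG box and a GATA motif, and a match describes the sequence only.

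*Neb*, *Myot* and *Fhl1* were higher in the 3 *Gata4*-deleted hearts than in any of the other 9 hearts. *Csrp3* was lower in these 3 hearts than in the other 9. The other 6 genes overlapped between the *Gata4*-deleted hearts and the rest. Over all 35557 probesets, 1.43% lay above and 1.85% below the other 9 hearts in the same way.

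*Neb*, whose product nebulin spans the skeletal thin filament, had signals of 8.33, 8.16 and 8.35 in *Gata4*-deleted hearts and 6.53 and 6.44 in *Gata4* floxed hearts. It had 6.39, 6.46 and 6.78 in *Gata6*-deleted hearts, 6.49 and 5.82 in *Gata6* floxed hearts, and 6.37 and 6.33 in cre hearts. The *Gata4*-deleted hearts stood more than 1 log2 unit above every other heart, and the other 9 hearts lay between 5.82 and 6.78, with the lowest value in a *Gata6* floxed heart. Against its floxed line, *Neb* rose by 1.80 ± 0.18 on the log2 scale (SE), or 3.48-fold, in *Gata4*-deleted hearts (limma, adjusted p = 0.00751). This call was lost without either *Gata4* floxed heart (1.84 and 1.75, adjusted p = 0.0892 and 0.0913).

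*Myot* encodes myotilin, which binds α-actinin and filamin C at the Z-disc. Its signals were 10.97, 10.93 and 10.97 in *Gata4*-deleted hearts and 9.26 and 8.80 in *Gata4* floxed hearts. They were 9.54, 9.86 and 9.09 in *Gata6*-deleted hearts, 9.39 and 8.45 in *Gata6* floxed hearts, and 9.11 and 8.41 in cre hearts. The 3 *Gata4*-deleted hearts were nearly equal (SD 0.021), while the hearts of every other group differed widely, and the SD within groups, 0.39, was the highest of the 10 genes. The difference from the *Gata4* floxed hearts was 1.93 ± 0.31 (SE, 3.80-fold), the largest of the 10 genes, and missed the threshold (limma, adjusted p = 0.0592). It passed against the cre hearts (adjusted p = 0.0254) and against all 6 control hearts (2.05, adjusted p = 0.00902).

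*Fhl1*, a LIM-only protein that binds titin and is known as a marker of biomechanical stress in the heart, had signals of 10.66, 10.72 and 10.88 in *Gata4*-deleted hearts and 9.49 and 9.36 in *Gata4* floxed hearts. It had 9.70, 9.92 and 9.26 in *Gata6*-deleted hearts, 9.20 and 8.90 in *Gata6* floxed hearts, and 9.44 and 9.17 in cre hearts. The *Gata4*-deleted hearts lay above all others. The *Gata6*-deleted hearts lay above their own floxed hearts but overlapped with the *Gata4* floxed and cre hearts. *Fhl1* rose by 1.32 ± 0.18 (SE), or 2.50-fold, in *Gata4*-deleted hearts against their floxed line (limma, adjusted p = 0.0287). This call was lost without either *Gata4* floxed heart, any 1 *Gata4*-deleted heart or the first *Gata6*-deleted heart (adjusted p 0.0532 to 0.205).

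*Csrp3*, the muscle LIM protein of the Z-disc, had signals of 11.68, 11.75 and 11.72 in *Gata4*-deleted hearts and 11.96 and 11.94 in *Gata4* floxed hearts. It had 11.93, 11.87 and 11.80 in *Gata6*-deleted hearts, 11.96 and 11.89 in *Gata6* floxed hearts, and 12.02 and 12.08 in cre hearts. The *Gata4*-deleted hearts were the lowest and the cre hearts the highest, with no overlap at either end. The difference from the *Gata4* floxed hearts was -0.23 ± 0.069 (SE) and did not pass (limma, adjusted p = 0.290). Against all 6 control hearts it was -0.26 (adjusted p = 0.0760).

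**Figure D1:**
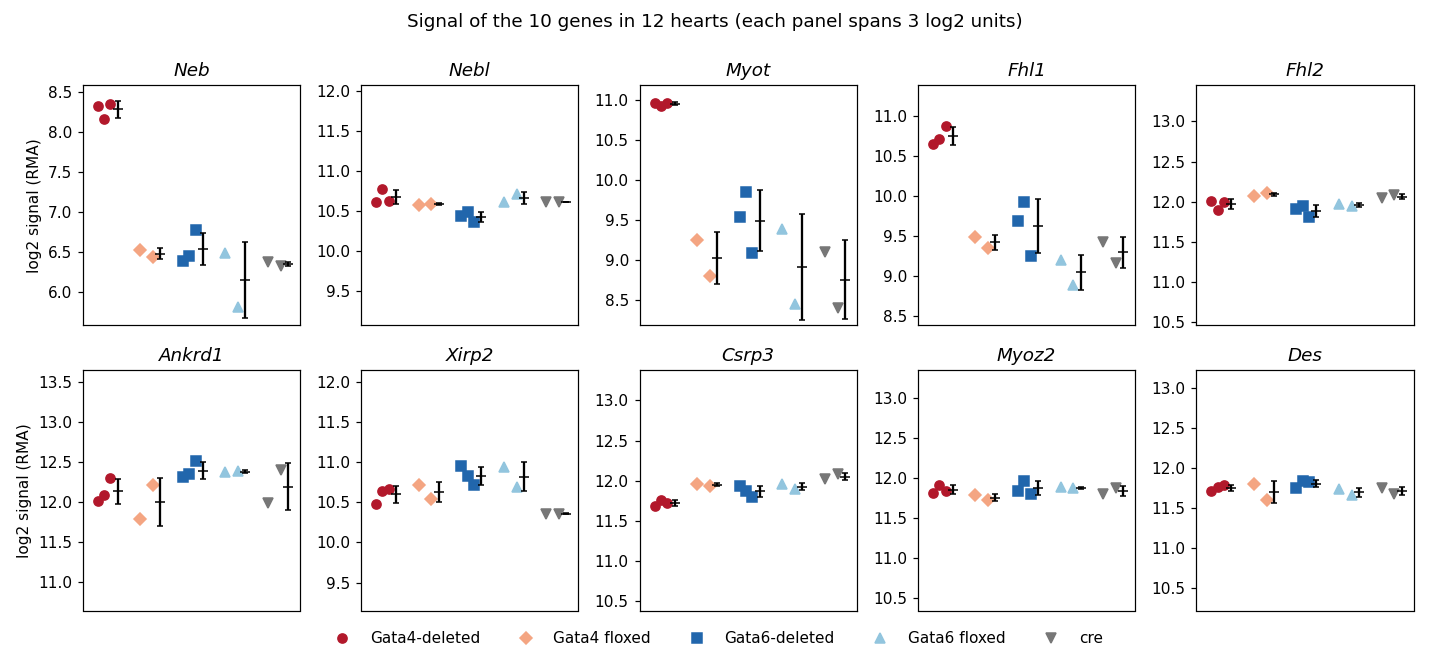
Log2 signal (y axis, RMA) of each of the 10 genes in single hearts, by group (*Gata4*-deleted, *Gata4* floxed, *Gata6*-deleted, *Gata6* floxed, cre, left to right), with the group mean ± SD as a black mark to the right of its points. Each panel spans 3 log2 units: *Neb*, *Myot* and *Fhl1* stand apart in the 3 *Gata4*-deleted hearts, and the other genes stay within less than 1 log2 unit over all 12 hearts.

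Of the 10 genes, 2 (*Neb* and *Fhl1*) passed as higher with the *Gata4* deletion against its floxed line and none as lower, where 0.183% of all probesets passed in either direction (0.104% higher). The values of single hearts did not overlap for 7 of the 10, above for *Neb*, *Nebl*, *Myot*, *Fhl1* and *Myoz2* and below for *Fhl2* and *Csrp3*, against 25.7% of all probesets. The median difference of the 10 genes was 0.096, and that of all probesets was 0.0030. The genes had been chosen with this comparison known, so these counts are a description. Differences over 1 log2 unit were those of *Neb*, *Myot* and *Fhl1*.

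Another 6 genes lay within 0.14 log2 units of the *Gata4* floxed hearts on average, *Nebl* among them. *Ankrd1*, the cardiac ankyrin repeat protein that is induced by load, had 12.01, 12.08 and 12.30 in *Gata4*-deleted hearts and 11.78 and 12.20 in *Gata4* floxed hearts, which overlapped (difference 0.14, 95% interval -0.22 to 0.49). *Xirp2*, an actin-binding Xin repeat protein of the Z-disc and intercalated disc, had 10.48, 10.65 and 10.67 in *Gata4*-deleted hearts and 10.72 and 10.54 in *Gata4* floxed hearts (difference -0.033, interval -0.28 to 0.21). Both intervals exclude a doubling and a halving.

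*Fhl2*, the LIM-only relative of *Fhl1* in heart, did not pass. Its signals were 12.01, 11.90 and 11.998 in *Gata4*-deleted hearts and 12.07 and 12.11 in *Gata4* floxed hearts, a difference of -0.12 (interval -0.28 to 0.040). *Myoz2*, or calsarcin-1, which holds calcineurin at the Z-disc, had 11.81, 11.91 and 11.83 in *Gata4*-deleted hearts and 11.79 and 11.72 in *Gata4* floxed hearts, with a difference of 0.098 (interval -0.071 to 0.27). *Des* encodes desmin, the intermediate filament that ties Z-discs to each other and to the cell membrane, and had 11.71, 11.76 and 11.78 in *Gata4*-deleted hearts and 11.80 and 11.60 in *Gata4* floxed hearts (difference 0.053, interval -0.12 to 0.23). None of these 3 passed, and only the *Des* values overlapped.

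With the *Gata6* deletion none of the 10 genes passed, and no probeset of the array did (0% of 35557, limma). At an unadjusted p under 0.05 there were 2 of the 10 (*Fhl1* and *Nebl*) and 1745 of all probesets, or 4.91%. The methods' t-test gave 1 of the 10 (*Nebl*) and 1643 of the 35557 probesets at that threshold, and none after adjustment. *Fhl1* differed by 0.58 ± 0.18 (SE, adjusted p = 0.866), *Myot* by 0.58 ± 0.31 (adjusted p = 0.999) and *Neb* by 0.39 ± 0.18 (adjusted p = 0.999) from the *Gata6* floxed hearts. The *Neb* and *Myot* values of single hearts overlapped between both groups. Both differences moved with the *Gata6* floxed heart left out: *Neb* was 0.72 without the first and 0.052 without the second, and *Myot* was 1.05 without the first and 0.11 without the second. The hearts did not overlap for 3 of the 10 genes, above for *Fhl1* and *Des* and below for *Nebl*, against 19.1% of all probesets.

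*Nebl* was the only one of the 10 genes whose hearts all lay on opposite sides of their floxed hearts with the 2 deletions, as 2.11% of all probesets did. Its signals were 10.62, 10.78 and 10.63 in *Gata4*-deleted hearts and 10.57 and 10.59 in *Gata4* floxed hearts, a difference of 0.093 ± 0.077 (SE, adjusted p = 0.789). They were 10.44, 10.49 and 10.37 in *Gata6*-deleted hearts, 10.61 and 10.71 in *Gata6* floxed hearts, and 10.61 and 10.62 in cre hearts. All 3 *Gata6*-deleted hearts were below all 6 control hearts, as were 1.88% of all probesets, and the difference from the *Gata6* floxed hearts was -0.23 ± 0.077 (SE, adjusted p = 0.910). The second, dimmer *Nebl* probeset read 6.62, 6.61 and 6.64 in *Gata6*-deleted hearts and 6.85 and 6.82 in *Gata6* floxed hearts, a difference of -0.21 ± 0.083 (SE). On that probeset too the *Gata6*-deleted hearts were the lowest of the 12, while *Gata4*-deleted hearts (6.80, 6.89 and 6.92) overlapped with *Gata4* floxed hearts (6.73 and 6.91).

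The remaining genes differed little between *Gata6*-deleted hearts and their floxed line. *Ankrd1* had 12.31, 12.34 and 12.51 in *Gata6*-deleted hearts and 12.37 and 12.39 in *Gata6* floxed hearts, and *Xirp2* had 10.95, 10.82 and 10.72 in *Gata6*-deleted hearts and 10.95 and 10.69 in *Gata6* floxed hearts. Both sets overlapped. The differences of *Fhl2*, *Ankrd1*, *Xirp2*, *Csrp3*, *Myoz2* and *Des* from the *Gata6* floxed hearts ran from -0.071 to 0.11.

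**Figure D2:**
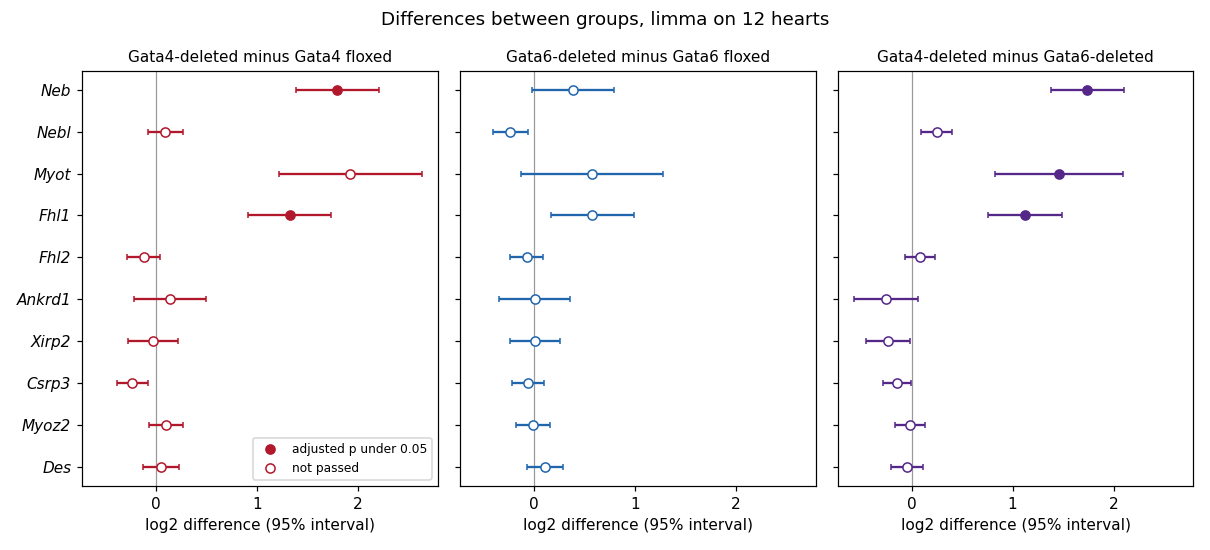
Log2 differences (x axis) with 95% intervals of the limma fit for the 10 genes in 3 comparisons: *Gata4*-deleted minus *Gata4* floxed, *Gata6*-deleted minus *Gata6* floxed, and *Gata4*-deleted minus *Gata6*-deleted hearts. Filled points passed an adjusted p of 0.05 over all probesets: *Neb* and *Fhl1* in the first panel, none in the second, and *Neb*, *Myot* and *Fhl1* in the third.

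Whether the change differed between the deletions was tested as an interaction, and none of the 10 genes passed (6 of all probesets did, 0.0169%). At an unadjusted p under 0.05 there were 4 of the 10 and 2224 of all probesets, or 6.25%. The change with the *Gata4* deletion exceeded that with the *Gata6* deletion by 1.41 ± 0.26 for *Neb* (SE, adjusted p = 0.326), 1.35 ± 0.44 for *Myot* (adjusted p = 0.699), 0.75 ± 0.26 for *Fhl1* (adjusted p = 0.715) and 0.33 ± 0.11 for *Nebl* (adjusted p = 0.699).

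Set directly against the *Gata6*-deleted hearts, 3 of the 10 genes were higher in *Gata4*-deleted hearts and none was lower, where 1.08% of all probesets passed (0.394% higher). *Neb* differed by 1.74 ± 0.16 (SE, 3.34-fold, adjusted p = 0.00169), *Myot* by 1.46 ± 0.28 (2.75-fold, adjusted p = 0.0472) and *Fhl1* by 1.12 ± 0.16 (2.18-fold, adjusted p = 0.0129). The *Myot* call lies close to the threshold and was lost under 13 of 20 alternatives, the omission of any *Gata4*-deleted or *Gata6*-deleted heart among them (adjusted p 0.0657 to 0.160). *Nebl* (0.25), *Xirp2* (-0.23), *Csrp3* (-0.15) and *Ankrd1* (-0.26) did not pass, although their single hearts did not overlap either. The floxed lines differed in the same direction for *Ankrd1* (-0.39) and *Xirp2* (-0.19), and in the other for *Nebl* (-0.079) and *Csrp3* (0.028). For *Ankrd1* the interaction had the opposite sign (0.13, adjusted p = 0.978). For *Neb*, *Myot* and *Fhl1* the floxed lines differed by 0.33, 0.11 and 0.38, in the same direction as the deleted hearts. In all, the hearts did not overlap for 7 of the 10 genes, against 18.1% of all probesets.

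The control groups held 2 hearts each, so a gene that did not pass between them may still differ. Between *Gata4* floxed and *Gata6* floxed hearts none of the 10 passed (0.228% of all probesets did). At an unadjusted p under 0.05 limma gave 0 of the 10, against 10.3% of all probesets. The methods' t-test gave 1 of the 10 (*Fhl2*), against 2293 of the 35557 probesets. The largest difference, that of *Ankrd1*, was -0.39 ± 0.17 (SE, adjusted p = 0.491). *Fhl1* differed by 0.38 (95% interval -0.073 to 0.83) and *Neb* by 0.33 (interval -0.12 to 0.77). For *Neb* this was close in size to its difference between *Gata6*-deleted and *Gata6* floxed hearts, 0.39. Between cre hearts and the mean of the floxed hearts none passed either (0.0956% of all probesets did). *Xirp2* had 10.35 and 10.36 in cre hearts, below all 10 other hearts. The share of all probesets with such a separation of the cre hearts was not counted. *Xirp2* differed by -0.37 ± 0.10 from the mean of the floxed hearts (SE, limma, adjusted p = 0.374). It was the only one of the 10 at an unadjusted p under 0.05, against 8.33% of all probesets. Both *Gata4*-deleted and *Gata6*-deleted hearts carry cre as well, and with cre hearts as the control *Xirp2* was 0.24 higher with the *Gata4* deletion and 0.47 higher with the *Gata6* deletion (limma, adjusted p = 0.469 and 0.141, neither passed).

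Within groups, *Myot*, *Neb*, *Fhl1* and *Ankrd1* varied most (SD 0.39, 0.22, 0.22 and 0.19 log2 units), *Xirp2* less (0.12), and *Nebl*, *Fhl2*, *Csrp3*, *Myoz2* and *Des* least (0.048 to 0.068). For this last set a difference of 0.2 already exceeded the spread between hearts of a group. To ask which genes moved together over single hearts, each heart's deviation from its group mean was compared between the genes of each of 45 pairs (exact permutation of hearts within groups, two-sided, smallest possible p 0.00347). None of the 45 passed after adjustment over the pairs, 3 had an unadjusted p under 0.05, and 30 correlations were positive.

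*Myot* and *Fhl1* deviated together most closely. Over 12 hearts the Pearson r of their deviations was 0.86 (exact permutation p = 0.0139, adjusted p = 0.313) and Spearman's rho was 0.90 (exact permutation p = 0.0208, adjusted p = 0.365), and r was 0.88 without the 2 hearts farthest from the median. In 4 of the 5 groups the hearts had the same order for both genes. In the *Gata6*-deleted group, the second heart was the highest and the third the lowest for each, and in the *Gata4* floxed, *Gata6* floxed and cre groups the first heart was the higher for each. The exception was the *Gata4*-deleted group, where *Myot* hardly varied. The order agreed in 4 of the 5 groups also for *Fhl1* and *Des*, *Xirp2* and *Csrp3*, and *Csrp3* and *Myoz2*. A group of 2 hearts allows only the same or the opposite order. *Myot* and *Fhl1* were also the closest pair over the levels of the 9 hearts without the *Gata4* deletion (r = 0.84, exact permutation p = 0.00481, adjusted p = 0.216, rho = 0.80, exact permutation p = 0.0138, adjusted p = 0.280, and r = 0.76 without the 2 farthest hearts). For levels of these 9 hearts, here and below, all 9 were permuted freely across groups. Differences between groups therefore enter those r and p values.

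*Neb* separated the *Gata4*-deleted hearts as *Myot* and *Fhl1* did, and its relation to them within groups was not resolved. It had the same order of hearts as each of them in the 3 groups of 2 hearts and another order in both groups of 3. The r of its deviations was 0.37 with *Myot* and 0.0037 with *Fhl1* (exact permutation p = 0.694 and 0.997, neither passed after adjustment), and -0.34 and -0.55 without the 2 farthest hearts. The third *Gata6*-deleted heart, lowest of its group for *Myot* and *Fhl1*, was the highest of its group for *Neb*. *Neb* deviated against *Nebl*, with r = -0.75 (exact permutation p = 0.0382, adjusted p = 0.573), rho = -0.89 (exact permutation p = 0.0243, adjusted p = 0.365) and r = -0.78 without the 2 farthest hearts. Over the 9 hearts without the *Gata4* deletion their r was -0.75 (exact permutation p = 0.0192, adjusted p = 0.261) and was -0.041 without the 2 farthest hearts, so the relation there rested on those hearts.

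*Xirp2* and *Csrp3* also deviated together, with r = 0.83 (exact permutation p = 0.0139, adjusted p = 0.313), rho = 0.86 (exact permutation p = 0.0104, adjusted p = 0.365) and r = 0.81 without the 2 farthest hearts. Their levels over the 9 hearts without the *Gata4* deletion gave r = -0.57 (exact permutation p = 0.107, adjusted p = 0.357) and 0.15 without the 2 farthest hearts, so that its sign rested on those hearts, with the cre hearts lowest for *Xirp2* and highest for *Csrp3*. *Fhl2* and *Csrp3* followed each other in the levels of these 9 hearts (r = 0.79, exact permutation p = 0.0116, adjusted p = 0.261, rho = 0.75, exact permutation p = 0.0255, adjusted p = 0.280, r = 0.80 without the 2 farthest hearts) and less in the deviations (r = 0.27, exact permutation p = 0.604, adjusted p = 0.921). No correlation over all 12 levels is given between the 10 genes, since the *Gata4*-deleted hearts form a separate cluster for *Neb*, *Myot*, *Fhl1* and *Csrp3*.

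**Figure D3:**
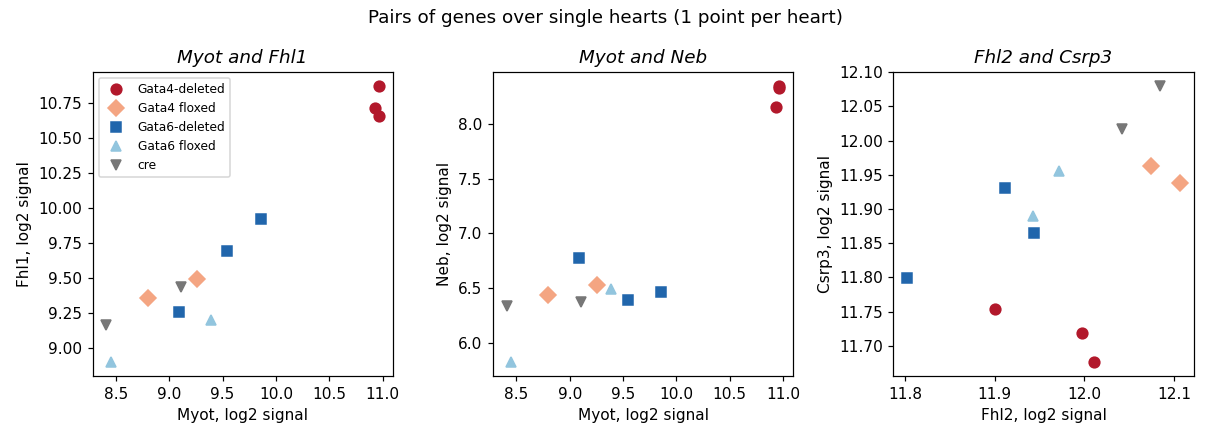
Log2 signals of 2 genes against each other, 1 point per heart, for *Myot* and *Fhl1*, *Myot* and *Neb*, and *Fhl2* and *Csrp3*. The 3 *Gata4*-deleted hearts lie apart at the top right in the first 2 panels and at the bottom in the third, and among the other 9 hearts r with *Myot* is 0.84 for *Fhl1* and 0.51 for *Neb*.

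**Figure D4:**
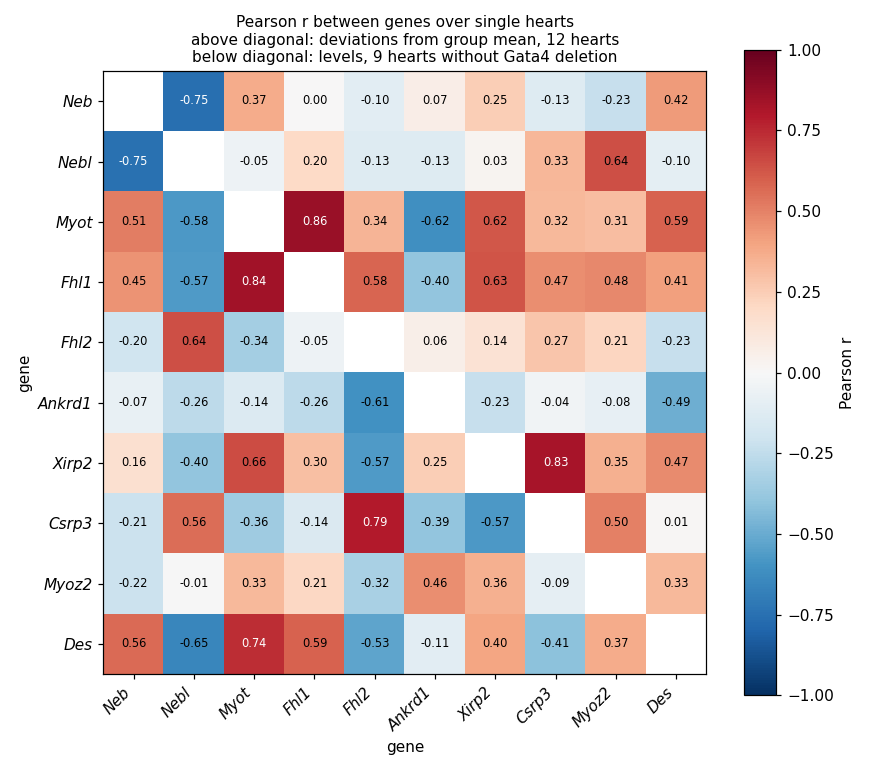
Pearson r for the 45 pairs of genes. Above the diagonal, r of deviations from the group mean over 12 hearts; below it, r of levels over the 9 hearts without the *Gata4* deletion. *Myot* and *Fhl1* are positive in both (0.86 and 0.84), *Neb* and *Nebl* negative in both (-0.75 and -0.75), and no pair passed adjustment.

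The genes whose signal was most like that of the 3 separated genes over the 12 hearts are given by Pearson's r as a description, with r over the 9 hearts without the *Gata4* deletion beside it. The 3 *Gata4*-deleted hearts form a separate cluster, so the r over 12 hearts carries this separation. For *Neb* they were *Ankrd10* (0.97 and 0.33), the muscle kinase *Mylk4* (0.97 and 0.73) and *Gyg*, glycogenin (0.96 and 0.46). For *Myot* they were *Vegfd*, a vascular growth factor (0.96 and 0.91), *Sipa1l1* (0.95 and 0.80) and *Adgrl1* (0.94 and 0.87). For *Fhl1* they were *Arrdc3* (0.96 and 0.68), the homeobox factor *Six4* (0.95 and 0.61) and *Laptm4a* (0.95 and 0.73). The lists shared no gene. Of these 9 genes, the 3 like *Myot* kept the highest r without the *Gata4*-deleted hearts, and *Ankrd10* and *Gyg* the lowest.

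Relatives of the 10 genes were read from lists of other sarcomere genes. None of 8 nebulin and muscle ankyrin repeat relatives, 21 measured of 22 other Z-disc genes, 13 other LIM genes and 11 intermediate filament partners passed with either deletion against its floxed line. Their median differences with the *Gata4* deletion were 0.11, -0.040, 0.038 and 0.019, beside 0.0030 for all probesets. The largest single differences there were those of *Pdlim3* (0.50, adjusted p = 0.768), *Lmcd1* (0.45, adjusted p = 0.458), the muscle ubiquitin ligase *Trim63* (-0.39, adjusted p = 0.188), plakoglobin *Jup* (-0.31, adjusted p = 0.201) and the leiomodin *Lmod3* (0.30, adjusted p = 0.380), all not passed. Among 7 cardiac stress genes, *Myh7*, the slow and fetal myosin heavy chain, was the only one that passed. It had 12.18, 12.50 and 12.68 in *Gata4*-deleted hearts and 9.64 and 9.60 in *Gata4* floxed hearts, a rise of 2.83 ± 0.37 (SE, limma, adjusted p = 0.0203). With the *Gata6* deletion *Myh7* had 10.82, 11.22 and 11.95, against 10.24 and 9.51 in *Gata6* floxed hearts (1.45, adjusted p = 0.631). Its highest *Gata6*-deleted heart was the third, the heart lowest for *Myot* and *Fhl1*.

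Between the deletions, 1 of the 13 other LIM genes passed. *Fhl3*, the third LIM-only gene of this family and mainly a skeletal muscle gene, was lower in *Gata4*-deleted hearts (6.16, 5.93 and 6.15) than in *Gata6*-deleted hearts (6.87, 6.82 and 6.92), by -0.79 ± 0.088 (SE, limma, adjusted p = 0.00413). Its floxed lines lay on the same sides, at 6.32 and 6.40 in *Gata4* floxed hearts and 6.97 and 6.87 in *Gata6* floxed hearts (-0.56, adjusted p = 0.101), and it changed by -0.28 with the *Gata4* deletion against its own line (adjusted p = 0.373). Of *Fhl1*, *Fhl2* and *Fhl3*, only *Fhl1* passed with a deletion against its floxed line, and no test compared their profiles. The desmin partner *Sync* (-0.46, limma, adjusted p = 0.0501) and filamin *Flnc* (-0.38, adjusted p = 0.0727) were just outside the threshold in *Gata4*-deleted against *Gata6*-deleted hearts.

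Since *Neb*, *Myot* and *Fhl1* are abundant in skeletal muscle, 15 skeletal muscle markers were read beside them. None passed in any comparison, and 13 of the 15 differences with the *Gata4* deletion were positive, with a median of 0.085. Of these markers, chosen with their values known, the myosin *Myh4* stayed between 4.08 and 4.55, *Actn3* between 4.85 and 5.23 and *Mylpf* between 4.99 and 5.52 in all 12 hearts. Others were brighter and varied more, such as *Myl1* (6.07 to 7.48) and *Mybpc2* (7.29 to 8.07). These ranges do not show the direction with a deletion. *Casq1*, the calsequestrin of skeletal muscle, had the largest difference, at 10.86, 10.90 and 10.24 in *Gata4*-deleted hearts and 10.09 and 7.87 in *Gata4* floxed hearts (1.69, adjusted p = 0.454). The second largest was that of *Tnni2*, the fast troponin I (0.38, adjusted p = 0.324). *Casq1* had 9.47, 9.45 and 8.06 in *Gata6*-deleted hearts, 8.36 and 7.37 in *Gata6* floxed hearts, and 8.60 and 9.59 in cre hearts. The summed level of the 15 markers was 10.98 to 11.43 in *Gata4*-deleted hearts, above 9.98 to 10.88 in *Gata4* floxed hearts, 10.20 to 10.61 in *Gata6*-deleted hearts, 9.89 to 10.09 in *Gata6* floxed hearts and 10.22 to 10.60 in cre hearts. The mean log2 signal of the 15 markers was also highest in *Gata4*-deleted hearts, at 5.89 to 6.02, and at most 5.84 in the other hearts. The summed level adds linear signals, and *Casq1*, at 10.24 to 10.90 in *Gata4*-deleted hearts, makes up most of it there. *Casq1* also enters the mean, and neither measure was computed without it. The 5 macrophage markers had a summed level of 9.06 to 9.08 in *Gata4*-deleted hearts and 9.48 to 9.69 in *Gata4* floxed hearts. Of the 5 smooth muscle markers only the actin *Acta2* was higher with the *Gata4* deletion (1.34, adjusted p = 0.0601), the other 4 being below their level in *Gata4* floxed hearts (median of the 5 differences -0.074, *Myh11* -0.18), and none passed. The part of these in the rise of *Neb*, *Myot* and *Fhl1* was not tested.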

How the data were processed

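RNA of 12 whole hearts was measured on Affymetrix mouse gene arrays, 1 per heart. The deposited values are log2 signals that the authors made by RMA, which subtracts background, normalizes the arrays to each other and summarises each probeset, with the version and annotation not given in the sources used here. A second deposited table with 12 columns of relative expression, whose names no label pairs with a sample, was not used. Of 35557 probesets the platform table gave 21789 exactly 1 symbol, 1621 several and 12147 none. One group-means model was fitted to all 12 arrays and all probesets with limma 3.58.1 in R 4.3.3 (7 residual and 2.50 prior degrees of freedom), two-sided, with Benjamini-Hochberg adjustment over all probesets and a threshold of 0.05. The comparisons share hearts. The 10 genes and the lists were chosen with earlier results of these data known. Of the other lists described, those genes are named that passed, or else up to 2 with the largest differences. Markers of atrial, fibroblast, endothelial, red blood cell and adipocyte type were also read. None of them passed in any comparison, and they are not described. The skeletal muscle genes given only by their range over 12 hearts were named outside this rule. For each of the 10 genes that passed anywhere, the 3 genes with the highest r are named. For 1 gene, 3 hearts against 2 or 3 allow no exact p below 0.1, and the number of arrays limits the precision. The labels call the hearts biological replicates. Correlations of deviations were tested by exact permutation of hearts within groups. Those of levels in the 9 hearts without the *Gata4* deletion were tested by exact permutation of all 9, across groups. The model was tested on simulated data with known changes. Alternatives covered normalization, centring, a filter on dim probesets (mean log2 of 6), the variance prior, the probeset of a gene, the samples fitted, the control, a replicate block, the methods' t-test and each heart left out.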

Additional observations from a re-analysis of the deposited data

Results flagged for a closer look

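*Nebl* drew attention because every *Gata4*-deleted heart was above its floxed hearts and every *Gata6*-deleted heart was below its own. The changes differed by 0.33 on the log2 scale, with an SE of 0.11 (limma, adjusted p = 0.699), so the difference was tested and did not pass. Such opposite displacement was found in 2.11% of all probesets. The dimmer *Nebl* probeset gave 0.26 for the same difference (adjusted p = 0.803), with overlap between the *Gata4* groups.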

How the results depend on the processing

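Of 745 alternatives for 35 differences of the 10 genes, 687 kept the direction and the side of the threshold, 29 lost a call, 7 gained one and 22 turned the direction. The count of changed genes in *Gata4*-deleted against *Gata4* floxed hearts, 2, became 1 (*Neb*) when only these groups were fitted (9 probesets in all passed, against 65) and 0 with the methods' t-test, and ranged from 0 to 3 with a heart left out: 0 without either *Gata4* floxed heart, 1 without any *Gata4*-deleted heart or the first *Gata6*-deleted heart, and 3, *Myot* included, without either *Gata6* floxed heart. The count in *Gata4*-deleted against *Gata6*-deleted hearts, 3, became 1 (*Neb*) with only these groups (98 probesets against 384) and 0 with the methods' t-test, and ranged from 1 to 3 with a heart left out, with 1 without the third *Gata4*-deleted heart. *Myot* in *Gata4*-deleted against *Gata4* floxed hearts passed under 7 of 23 alternatives, among them the filter on dim probesets (adjusted p = 0.0142) and another variance prior (adjusted p = 0.0349). The methods' t-test at an unadjusted p under 0.05 called 4, 1 and 5 of the 10 genes in the *Gata4*, *Gata6* and direct comparisons. Of all 35557 probesets it called 2871, 1643 and 3771 there. None of the 10 passed after adjustment. The cause of these shifts was not tested.

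Replicate numbers showed no pairing of the hearts in deviations from the group mean. Of 21 pairs with the same number, 1 correlated over 0.1, and 3 of 12 hearts correlated best with their own number. In a group of 2 hearts these deviations mirror each other, so the check is weak and cannot exclude a pairing. With the replicate number as a block, the count with the *Gata4* deletion was 1 (14 probesets in all), that between the deletions 2 (234 probesets), and the other counts stayed at 0.

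The reversals concerned differences that did not pass. With the *Gata4* deletion, *Ankrd1* was -0.0568 against cre hearts, -0.0560 against all 6 controls and -0.106 against the other 4 groups (an alternative chosen after seeing the data), and ran from -0.0744 to 0.349 with a heart left out. *Xirp2* was 0.242 against cre hearts and ran from -0.123 to 0.0565 with a heart left out, and *Des* from -0.0458 to 0.152. With the *Gata6* deletion, *Ankrd1* was -0.0659 with the block and ran from -0.0531 to 0.0473 with a heart left out, and *Xirp2* from -0.117 to 0.141. *Myoz2* was 0.00432 with quantile normalization, 0.0128 with the block, 0.0331 against cre hearts and 0.0468 against all 6 controls, and ran from -0.0573 to 0.0243 with a heart left out. Between the deletions, *Myoz2* ran from -0.0504 to 0.0312 with a heart left out.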
